A study of Mus musculus with 4 samples.

Results

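The genes described here encode the DNA replication machinery: the helicase and its loaders, the factors that start the helicase, the polymerases and clamp of the replication fork, and the enzymes that supply deoxynucleotides. A list of 35 mouse gene symbols was matched to the gene names of a normalized abundance table with 43998 entries, and 33 of the 35 were found. Cdt1 and Gins2 were not analysed here. RNA was sequenced from THY1+ spermatogonia of C57BL/6 mice at postnatal day 4, in 2 libraries of a mutant whose retinoic acid (RA) signalling was impaired in the germ cells and 2 libraries of control mice. The cells had been drawn from testis with magnetic beads carrying an antibody to CD90.2, the THY1 surface protein that undifferentiated spermatogonia carry. The labels name neither the altered gene, nor the driver that restricts it to germ cells, nor whether animals were pooled. The deposited table gives 1 RPKM value per gene and genotype, made from both libraries, where RPKM is a gene's read number divided by its length and by the library's total. The spread between libraries is thus hidden, and neither an SD nor a p-value can be had for any difference.

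Replication begins when origin-bound proteins, with CDC6 and CDT1, load the ring-shaped MCM helicase onto DNA, a step called licensing. Kinases then recruit CDC45 and GINS, which turn the loaded ring into an active helicase, and polymerases copy the opened strands behind it. Most of these genes are transcribed around the start of S phase under E2F transcription factors, so their RNA is commonly read as a sign of cycling cells. Early postnatal spermatogonia leave a fetal arrest and start to divide, and retinoic acid drives their later differentiation.

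Genes of germ cells in general, not of THY1+ spermatogonia alone, were present in both genotypes, together with markers of other testicular cells. Of 25 germ cell genes, 24 had higher mutant values, with a median log2 difference of 0.59, and their RPKM summed to 1840 in mutant and 1282 in control. Dazl, a germ cell RNA-binding protein, was at 353 RPKM in mutant and 274 RPKM in control, and the piRNA factor gene Mael at 219 RPKM in mutant and 159 RPKM in control. All 12 macrophage genes, all 6 Leydig cell genes and 17 of 18 Sertoli cell genes were lower in mutant, with medians of -1.36, -1.27 and -0.86, and their sums in mutant were 0.361, 0.364 and 0.586 of those in control. The macrophage lysozyme gene Lyz2 was at 428 RPKM in mutant and 1339 RPKM in control. All 7 fibroblast, all 6 peritubular myoid and all 5 erythroid genes were lower as well, with medians of -0.67, -0.66 and -2.04, while 4 of 8 endothelial genes were lower, with a median of 0.06. Replication genes are used by any dividing cell, and the part of these shifts in the values below was not tested. In such a mixture, fewer cells of a type and less RNA per cell cannot be told apart.

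The replication genes had moderately lower values in mutant. Of the 33 genes, 31 lay below control, and 25 did when each column was divided by its sum, which moved the median of all genes to 0.15 and left 38.3% of all genes below control. The median log2 difference of the 33, taken on RPKM plus 1, was -0.35, with quartiles of -0.56 and -0.18, against 0.005 for the 16473 genes that reached an RPKM of 1 in at least 1 genotype. Summed over the 33 genes, mutant RPKM was 0.777 of control, against 0.891 over all 16473 genes. In the background of 16473 genes, 49.6% lay below control and 50.4% above it. At least 20% lower on this scale were 18 of the 33 genes, against 26.5% of all genes, and 0 of the 33 were higher by the matching 25%, against 25.9% of all genes. By a fold of 1.5 or more, 7 of the 33 were lower, against 13.7% of all genes. These 7 were Rrm1, Pold1, E2f1, Tyms, Cdc6, Ccne1 and Pcna. None of the 33 reached 2-fold, where 4.35% of all genes were lower and 4.4% higher by that much. The 2 genes above control were Pole and Ccne2. All 33 genes had an RPKM above 5 in each genotype, and among the 9321 protein-coding genes that reached an RPKM of 5 in at least 1 genotype 56.1% lay below control and 30.1% were at least 20% lower. Of these 9321, 1572 were at least 25% higher, 468 at least 2-fold lower and 116 at least 2-fold higher, with a median of -0.066. Higher values were thus less common among them than among the 16473 genes.

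**Figure D1:**
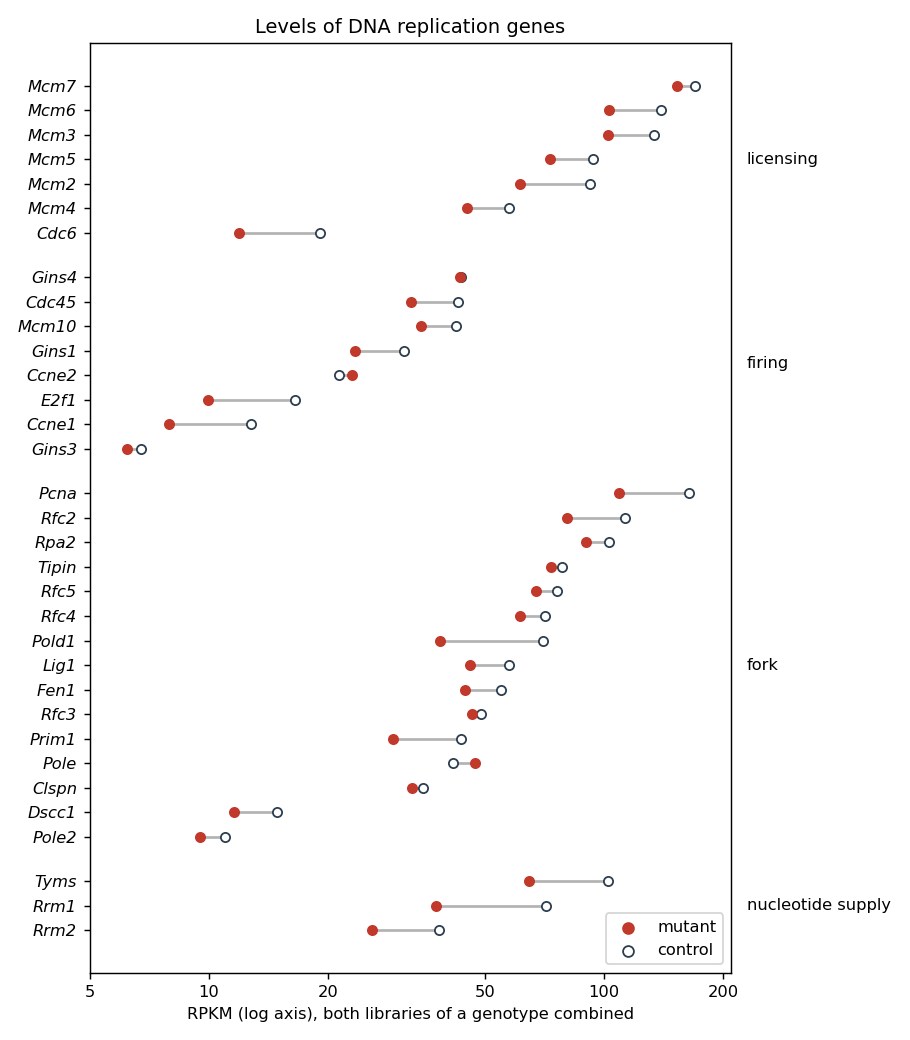
RPKM of each of the 33 measured replication genes in mutant (filled) and control (open), on a log axis and grouped by step; each point is 1 combined value of 2 libraries, so no error bar is drawn. The filled point lies left of the open one for 31 genes, with Pole and Ccne2 the other way round, and the widest gaps are those of Rrm1 (37.7 in mutant, 71.4 in control) and Pold1 (38.6 in mutant, 70.3 in control).

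Counting error was small beside most of these differences. The steps of the low values placed about 57.3 M reads behind the mutant column and 56.5 M behind the control column, if no further scaling entered the values. The thinnest value, Ccne1 in mutant, then rested on about 812 reads, for an RPKM of 7.92 (95% Poisson interval 7.38 to 8.48), against 12.8 (12.1 to 13.5) in control. For 31 of the 33 genes the log2 difference was larger than the 95% margin that counting error gives it, and Gins3 and Gins4 were the exceptions. Rfc3 passed its margin only narrowly (-0.074 against 0.073). The same count was not made over all genes, so it does not set the 33 apart from them. These intervals cover counting of reads only and say nothing of animals or libraries.

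Promoter windows of these genes were compared in sequence. RefSeq windows (GRCm38.p6) of 300 bases, from 250 before to 50 after a transcription start, were at hand for 25 of the 33 genes, in 29 windows. Of these windows, 10 lie wholly inside the span that the table gives their gene, downstream of its 5′ end, and so need not be its main promoter; they belong to Cdc45, Cdc6, E2f1, Fen1, Lig1 and Mcm7. All 29 were searched on both strands for 4 forms of the E2F binding site (TTTCCCGC, TTTGGCGC, TTTCGCGC and TTTGCCGC), for the cell cycle homology region (CHR) element TTTGAA and for CCAAT. An E2F form was present in 11 of the 29 windows (37.9%), against 744 of all 32851 windows (2.26%). CCAAT was present in 16 of the 29 (55.2%), against 37.4% of all windows, and TTTGAA in 4 of the 29 (13.8%), against 17.9%. The 11 genes with an E2F form were Mcm3, Mcm5, Mcm6, Mcm7, Cdc6, Gins3, Pold1, Pole2, Lig1, Clspn and Rfc3. In Mcm5 and Mcm6 a pair of E2F forms on opposite strands overlaps in 1 run of 12 bases, and in Mcm7 an E2F form shares its last base with a CCAAT. The median log2 difference of the 11 was -0.32, and that of the 14 genes whose windows lack these letters was -0.55. Of the 19 windows that do not lie inside the span, from 19 genes, 8 held an E2F form; the median log2 difference of those 8 genes was -0.28 and that of the other 11 was -0.56. A match describes letters in a window and does not show binding, and a window without one says nothing about the factor.

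The stretches below show the E2F matches of 8 of the 11 genes, each 30 bases long and read 5′ to 3′ along the gene's strand, with the matched letters, or their reverse complement, in capitals. These 8 are the genes with an E2F form whose full window is not printed below. Of the 8, 4 encode subunits of the MCM ring, whose values are described later by subunit. The stretches of Mcm7 and Lig1 come from windows inside the gene's span.
Mcm3, chr1:20820265-20820294, minus strand: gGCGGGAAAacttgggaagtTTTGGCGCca
Mcm6, chr1:128359795-128359824, minus strand: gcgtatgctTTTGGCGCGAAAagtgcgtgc
Mcm6, chr1:128359734-128359763, minus strand: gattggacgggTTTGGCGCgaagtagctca
Clspn, chr4:126556990-126557019, plus strand: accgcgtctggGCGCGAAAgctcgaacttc
Mcm7, chr5:138172030-138172059, minus strand: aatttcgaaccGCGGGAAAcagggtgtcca
Mcm7, chr5:138171849-138171878, minus strand: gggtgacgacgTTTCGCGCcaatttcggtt
Lig1, chr7:13278841-13278870, plus strand: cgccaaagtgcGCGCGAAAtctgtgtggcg
Mcm5, chr8:75109347-75109376, plus strand: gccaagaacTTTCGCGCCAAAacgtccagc
Gins3, chr8:95633507-95633536, plus strand: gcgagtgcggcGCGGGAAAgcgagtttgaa
Pole2, chr12:69228162-69228191, minus strand: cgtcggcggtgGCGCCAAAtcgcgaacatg

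The 4 windows below are those of Cdc6, Pold1 and Rrm1, the genes with the lowest log2 difference in licensing, at the fork and in nucleotide supply, and of Rfc3, the gene with the highest one among those with a window. The window of Cdc6 belongs to a start site 350 bases downstream of the 5′ end of the gene's span. That of E2f1, the lowest of origin firing, belongs to a start site 466 bases downstream of the 5′ end of its gene's span. It holds no match of any motif searched and is not shown. Capitals mark E2F forms or their reverse complements in Cdc6, Pold1 and Rfc3 and CCAAT, or its reverse complement ATTGG, in Rrm1 and Rfc3. In Rfc3 a pair of E2F forms stands at the start site, the first on the plus strand of the gene 10 bases before it and the other on the opposite strand beginning at base 1.
Cdc6 window, chr11:98907901-98908200, plus strand: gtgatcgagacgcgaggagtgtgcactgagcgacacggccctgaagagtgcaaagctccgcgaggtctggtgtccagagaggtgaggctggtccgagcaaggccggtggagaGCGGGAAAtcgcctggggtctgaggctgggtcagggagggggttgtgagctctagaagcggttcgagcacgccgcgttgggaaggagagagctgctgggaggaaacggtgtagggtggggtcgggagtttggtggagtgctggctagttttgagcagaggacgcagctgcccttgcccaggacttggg
Pold1 window, chr7:44548766-44549065, minus strand: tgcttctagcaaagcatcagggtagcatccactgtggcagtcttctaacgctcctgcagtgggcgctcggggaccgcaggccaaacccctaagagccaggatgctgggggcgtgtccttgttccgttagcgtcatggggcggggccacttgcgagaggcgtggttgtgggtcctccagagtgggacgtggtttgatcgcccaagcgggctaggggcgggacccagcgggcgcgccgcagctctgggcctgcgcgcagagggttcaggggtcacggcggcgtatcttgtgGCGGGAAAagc
Rrm1 window, chr7:102441445-102441744, plus strand: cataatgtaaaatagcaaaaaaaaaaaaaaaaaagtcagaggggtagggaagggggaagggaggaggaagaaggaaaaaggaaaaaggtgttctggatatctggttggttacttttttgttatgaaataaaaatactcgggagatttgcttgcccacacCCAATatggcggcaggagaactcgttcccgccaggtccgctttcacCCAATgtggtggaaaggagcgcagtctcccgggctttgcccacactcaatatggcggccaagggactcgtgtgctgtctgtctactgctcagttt
Rfc3 window, chr5:151651159-151651458, minus strand: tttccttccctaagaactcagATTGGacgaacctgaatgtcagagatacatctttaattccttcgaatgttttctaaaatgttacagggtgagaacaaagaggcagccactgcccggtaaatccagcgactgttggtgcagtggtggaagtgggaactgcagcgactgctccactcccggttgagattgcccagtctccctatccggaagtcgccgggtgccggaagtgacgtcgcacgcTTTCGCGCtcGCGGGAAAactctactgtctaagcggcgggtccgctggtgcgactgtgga

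**Figure D2:**
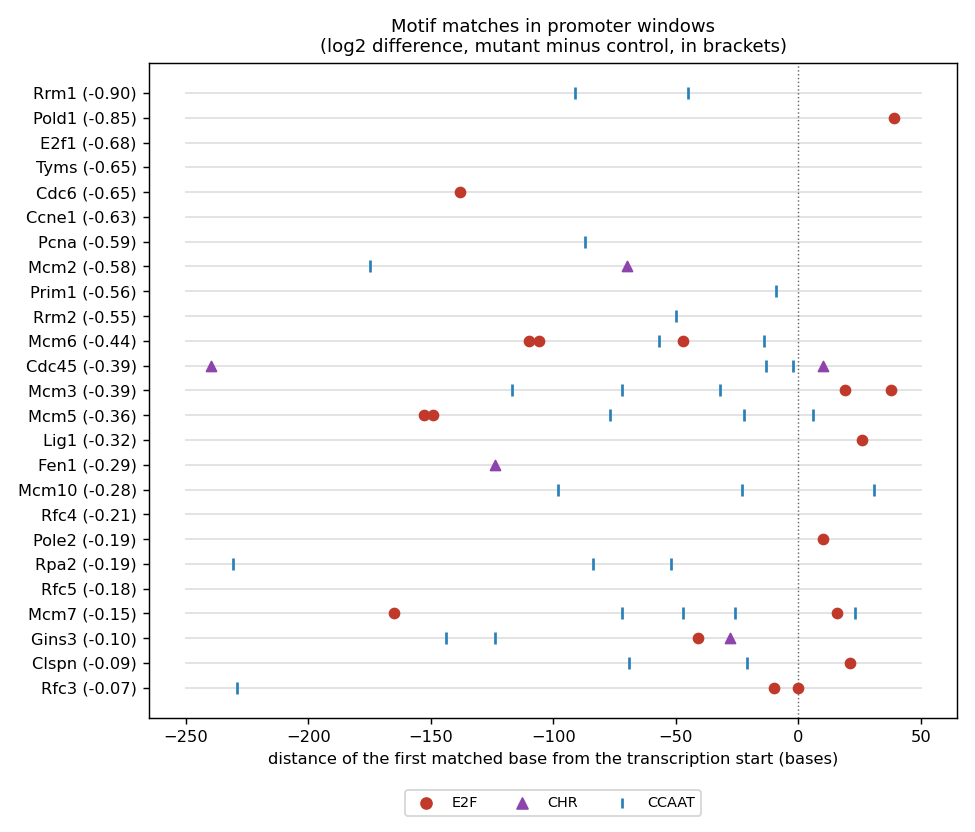
Positions of motif matches in the promoter windows of 25 replication genes, ordered from the lowest log2 difference (top) to the highest; the horizontal axis is the distance of the first matched base from the transcription start, and all windows of a gene are overlaid, including those of Cdc45, Cdc6, E2f1, Fen1, Lig1 and Mcm7 that lie inside the gene's span. Genes with E2F matches (circles) range from Pold1 (-0.85) to Rfc3 (-0.07) and lie more toward the small differences. Their median is -0.32, against -0.55 for the 14 genes without an E2F match.

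The 7 measured licensing genes all had lower mutant values, against 49.6% of all genes, and their median log2 difference was -0.39. By at least 20%, 6 of them were lower, against 26.5% of all genes. When each column was divided by its sum, 6 of the 7 stayed below control, against 38.3% of all genes. The 6 subunits of the MCM helicase form the ring that unwinds DNA. Mcm2 was at 61.5 RPKM in mutant and 92.4 RPKM in control, the widest gap among the subunits (log2 difference -0.58). Mcm6 was at 103 RPKM in mutant and 140 RPKM in control (-0.44). Mcm3 was at 102 RPKM in mutant and 134 RPKM in control (-0.39). These 3 subunits thus lay between 0.665 and 0.764 of control. Mcm5 was at 72.9 RPKM in mutant and 94.1 RPKM in control (-0.36), and Mcm4 at 44.9 RPKM in mutant and 57.4 RPKM in control (-0.35). Mcm7 was the highest of the 33 genes in both genotypes, at 153 RPKM in mutant and 170.0 RPKM in control (-0.15, or 0.005 when each column was divided by its sum). Its entry also holds Mir25 and Mir93, microRNAs that lie within the gene, so its value is not that of Mcm7 alone. Summed over the ring, mutant RPKM was 0.782 of control, and the ratio of Mcm2 to Mcm7, which no scaling of a column alters, was 0.402 in mutant and 0.544 in control. Cdc6, the ATPase that loads the ring, was at 11.9 RPKM in mutant and 19.2 RPKM in control (-0.65, interval of the mutant value 11.5 to 12.3 and of the control value 18.6 to 19.7).

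The other genes listed under licensing, not all of which load the ring, did not share this level of difference. Of 12 measured genes beside the 7, 5 were below control and 7 above it, with a median of 0.02. Only 1 was at least 20% lower, against 26.5% of all genes, and 2 were at least 25% higher, against 25.9%. Those 2 were Mcm8 (0.39) and Mcm9, which lie outside the MCM ring. Gmnn, which encodes geminin, the inhibitor of CDT1, was at 38.2 RPKM in mutant and 60.6 RPKM in control (-0.65). Orc1, the subunit of the origin recognition complex that recruits CDC6, was at 16.1 RPKM in mutant and 19.0 RPKM in control (-0.23). The other subunits of that complex ranged from -0.08 for Orc6 to 0.31 for Orc5, whose entry also holds the predicted gene Gm15421, and the summed complex was 1.09 of control in mutant. Mcm9, a helicase of recombination repair outside the MCM ring, was the highest of the list, at 9.94 RPKM in mutant and 6.08 RPKM in control (0.63).

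Origin firing was represented by 8 measured genes, with a median of -0.33. Lower mutant values were seen for 7, against 49.6% of all genes, or for 5 against 38.3% when each column was divided by its sum. Of the 8, 4 were at least 20% lower, against 26.5% of all genes. E2f1, the transcription factor that switches on S phase genes and is grouped here with the regulators of firing, was at 9.97 RPKM in mutant and 16.5 RPKM in control (log2 difference -0.67). Ccne1 and Ccne2 encode the E-type cyclins that activate CDK2 at the start of S phase, and they differed in direction. Ccne1 was lower at 7.92 RPKM in mutant and 12.8 RPKM in control (-0.63). Ccne2 was at 23.0 RPKM in mutant and 21.4 RPKM in control (0.10, or -0.17 with the trend on transcript length and GC content removed and -0.49 when the germ cell genes were centred on 0). The ratio of Ccne1 to Ccne2 was 0.344 in mutant and 0.599 in control. Ccne2 is thus the more abundant E-type cyclin RNA in both genotypes, per length of transcript.

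The helicase activators were uneven. Cdc45, which binds the MCM ring, was at 32.4 RPKM in mutant and 42.8 RPKM in control (-0.39), and Mcm10, which helps the ring to open, at 34.5 RPKM in mutant and 42.2 RPKM in control (-0.28). Of the GINS subunits, Gins1 was at 23.5 RPKM in mutant and 31.2 RPKM in control (-0.40). Gins4 was at 43.4 RPKM in mutant and 43.5 RPKM in control (-0.006), with a positive difference when each column was divided by its sum (0.15), after quantile normalization (0.007) and without the trend on length and GC (0.13). Gins3 was at 6.20 RPKM in mutant (interval 5.79 to 6.64) and 6.74 RPKM in control (6.303 to 7.202), which overlap in counting error alone, and its difference of -0.10 was 0.03 when each column was divided by its sum. The ratio of Gins1 to Gins4 was 0.542 in mutant and 0.717 in control.

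Of 10 other firing genes, 3 were at least 20% lower and 2 at least 25% higher, against 26.5% and 25.9% of all genes. Their median was 0.10. Cdc25a, the phosphatase that activates CDK2, was at 17.1 RPKM in mutant and 23.3 RPKM in control (-0.42), and the S phase cyclin gene Ccna2 at 79.2 RPKM in mutant and 104 RPKM in control (-0.39). Cdk2 itself was at 31.1 RPKM in mutant and 39.7 RPKM in control (-0.34). Rif1, which delays the firing of late origins, was the highest, at 54.2 RPKM in mutant and 39.7 RPKM in control (0.44). The kinase that triggers the loaded ring was not lower: Dbf4 was at 63.7 RPKM in mutant and 48.8 RPKM in control (0.38), and the difference of its partner Cdc7 was 0.10.

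Of the 15 fork genes 14 had lower mutant values, against 49.6% of all genes, or 11 against 38.3% when each column was divided by its sum. At least 20% lower were 5 of the 15, near the 26.5% of all genes and the 30.1% of protein-coding genes reaching RPKM 5. The median of -0.21 was the smallest of the 4 steps in size. The sum over the 15 genes was 0.801 of control. Pcna, the sliding clamp that tethers polymerases to DNA, was at 109 RPKM in mutant and 164 RPKM in control (log2 difference -0.59), the second highest control value of the 33 genes after Mcm7. Rfc2 to Rfc5 encode the small subunits of the clamp loader. Rfc2 was at 80.5 RPKM in mutant and 113 RPKM in control (-0.49). Rfc4 was at 61.5 RPKM in mutant and 71.1 RPKM in control (-0.21), and Rfc5 at 67.2 RPKM in mutant and 76.2 RPKM in control (-0.18). Rfc3 was at 46.5 RPKM in mutant and 49.0 RPKM in control (-0.07, or 0.08 when each column was divided by its sum and 0.01 without the length and GC trend). The ratio of Rfc2 to Rfc3 was 1.73 in mutant and 2.31 in control. Dscc1, a subunit of the alternative clamp loader, was at 11.6 RPKM in mutant and 14.9 RPKM in control (-0.34).

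The polymerases differed by kind. Pold1, the catalytic subunit of polymerase delta, which extends the lagging strand, was at 38.6 RPKM in mutant and 70.3 RPKM in control (-0.85). Its partners, from the list of other fork genes, were lower too: Pold4 at 5.85 RPKM in mutant and 13.3 RPKM in control (-1.06), Pold3 at 101 RPKM in mutant and 165 RPKM in control (-0.70), and Pold2 at 28.4 RPKM in mutant and 35.3 RPKM in control (-0.30). Summed polymerase delta was 0.613 of control in mutant. Prim1, the catalytic primase subunit that lays down RNA primers, was at 29.3 RPKM in mutant and 43.6 RPKM in control (-0.56). Its partners Pola1 and Pola2 had differences of -0.75 and -0.53, and Prim2 one of -0.09, so that the summed assembly was 0.690 of control. Pole, the catalytic subunit of polymerase epsilon, which extends the leading strand, was instead at 47.3 RPKM in mutant and 41.5 RPKM in control (0.19, or -0.40 when the germ cell genes were centred on 0). Pole2 was at 9.50 RPKM in mutant and 10.99 RPKM in control (-0.19). The ratio of Pold1 to Pole was 0.815 in mutant and 1.69 in control, the largest shift among the 6 ratios computed within a genotype. The accessory subunits Pole3 and Pole4, which also pair as histone-fold proteins, had differences of 0.04 and -0.58.

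**Figure D3:**
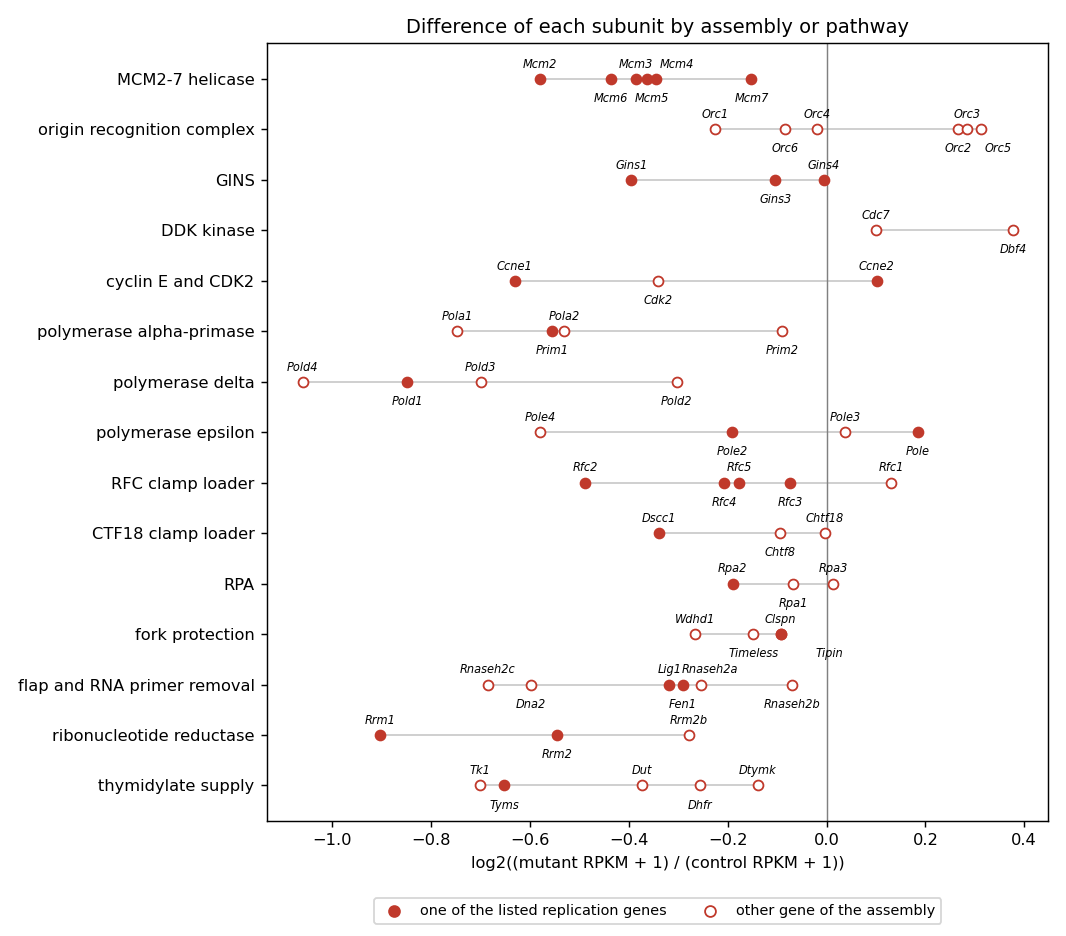
Log2 difference (mutant minus control, RPKM plus 1) of each subunit in 15 assemblies or pathways, with listed replication genes filled and other genes of the same assembly open; the points of Clspn and Tipin coincide. All 4 polymerase delta subunits lie between -1.06 and -0.30, whereas polymerase epsilon spans -0.58 to 0.19 and the origin recognition complex -0.23 to 0.31; dividing each column by its sum moves all points to the right by about the 0.15 of the all-gene median.

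The remaining fork genes act on Okazaki fragments, on single-stranded DNA and in fork protection. Fen1, the nuclease that trims Okazaki flaps, was at 44.6 RPKM in mutant and 54.8 RPKM in control (-0.29), and Lig1, the ligase that seals them, at 45.9 RPKM in mutant and 57.5 RPKM in control (-0.32). Rpa2, a subunit of the single-strand binding protein, was at 90.2 RPKM in mutant and 103 RPKM in control (-0.19). Clspn and Tipin belong to the fork protection and checkpoint module and were lower by the same small amount. Clspn was at 32.7 RPKM in mutant and 34.9 RPKM in control (-0.09), and Tipin at 73.4 RPKM in mutant and 78.3 RPKM in control (-0.09); both stood at 0.06 when each column was divided by its sum. Of 22 other fork genes, 7 were at least 20% lower and 1 at least 25% higher, against 26.5% and 25.9% of all genes. Their median was -0.12. Pold4 and Pola1 were the lowest, and Top1, the topoisomerase that relieves twist ahead of the fork, was the highest at 46.5 RPKM in mutant and 34.9 RPKM in control (0.41).

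The nucleotide supply genes had the lowest values relative to control. All 3 were at least 20% lower, against 26.5% of all genes, the median log2 difference was -0.65, and the summed RPKM was 0.606 of control. When each column was divided by its sum, all 3 stayed below control, against 38.3% of all genes, and the median was -0.50. Rrm1 and Rrm2 encode the large and small subunits of ribonucleotide reductase, which makes deoxynucleotides. Rrm1 was at 37.7 RPKM in mutant (interval 36.9 to 38.5) and 71.4 RPKM in control (70.3 to 72.5), a log2 difference of -0.90 and the lowest of the 33 genes. Rrm2 was at 25.97 RPKM in mutant and 38.3 RPKM in control (-0.55). Tyms, thymidylate synthase, was at 64.8 RPKM in mutant and 102 RPKM in control (-0.65). The ratio of Rrm1 to Rrm2 was 1.45 in mutant and 1.86 in control. Of 14 other supply genes, 13 were below control, against 49.6% of all genes, and the median was -0.20. While 5 were at least 20% lower, 0 were at least 25% higher, against 26.5% and 25.9% of all genes. Tk1, the thymidine kinase of the salvage route, was at 36.1 RPKM in mutant and 59.3 RPKM in control (-0.70), and the purine synthesis gene Paics at 83.8 RPKM in mutant and 117 RPKM in control (-0.48). Cad, which starts pyrimidine synthesis, was the highest at 89.8 RPKM in mutant and 82.7 RPKM in control (0.12).

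Outside the 33 genes the differences were smaller. The 68 other replication genes, counted over licensing, firing, fork, nucleotide supply and the chromatin factors behind the fork, showed a median of -0.09 on the log2 scale, which became 0.07 when each column was divided by its sum. Of these 68, 44 lay below control (64.7%), against 49.6% of all genes. While 19 were at least 20% lower, a share close to the 26.5% of all genes, only 6 were at least 25% higher, a smaller share than the 25.9% of all genes. Part of that gap lies in the background. Among the 9321 protein-coding genes reaching RPKM 5, 56.1% lay below control, 1572 were at least 25% higher and the median was -0.066. Among 10 chromatin factors, Uhrf1, which guides maintenance methylation, was at 77.1 RPKM in mutant and 118 RPKM in control (-0.61), and Tonsl, which repairs stalled forks, at 54.5 RPKM in mutant and 79.8 RPKM in control (-0.54). Asf1a, a histone chaperone, was the highest at 21.4 RPKM in mutant and 15.3 RPKM in control (0.46). The 33 were chosen with earlier results of these data known, so the gap between them and the other replication genes is a description.

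Genes of the later cell cycle mostly had small differences as well. Of 15 genes of G2 and mitosis, 12 were below control, against 49.6% of all genes, with a median of -0.10. By at least 20%, 3 were lower, and 1 was at least 25% higher, against 26.5% and 25.9% of all genes. Cdk1, the kinase of mitotic entry, was at 87.9 RPKM in mutant and 139 RPKM in control (-0.66), and the chromosomal passenger gene Birc5 at 34.4 RPKM in mutant and 53.4 RPKM in control (-0.62). Cenpe, a kinetochore motor, was the highest at 36.03 RPKM in mutant and 25.3 RPKM in control (0.49).

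**Figure D4:**
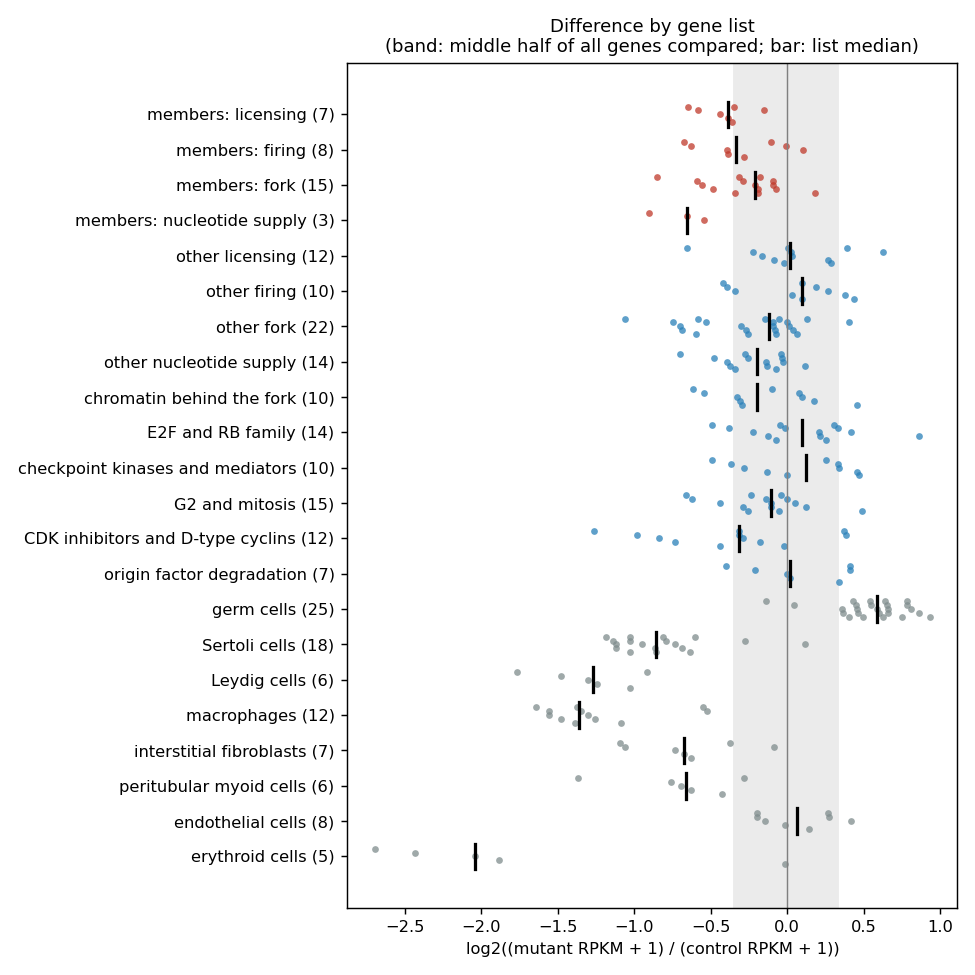
Log2 difference (mutant minus control, RPKM plus 1) of every measured gene in the 4 steps (red), in 10 lists of related genes (blue) and in 8 lists of cell type markers (grey), with the list median as a bar and the number of genes in brackets; the band runs between the quartiles of the 16473 genes compared. The medians of the 4 steps, from -0.65 to -0.21, lie between those of the germ cell genes (0.59) and of the macrophage genes (-1.36).

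In transcript length and base composition the 33 genes were close to all genes, and in level they stood above most. Their median transcript length was 2796 nt with 49.1% GC, against 2608 nt and 49.5% over 15465 genes with a match in GENCODE M21. Their median RPKM was 44.6 in mutant and 54.8 in control, against 9.82 in mutant and 10.25 in control over those genes. Across the 33 genes, which share libraries and depth, Spearman's rho between the log2 difference and the mean level was -0.08, given as a description. Without the trend on length and GC content the median of the 33 was -0.29, and 30 of them lay below control. Over all genes the median was then 0.015, with 48.7% below control.

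**Figure D5:**
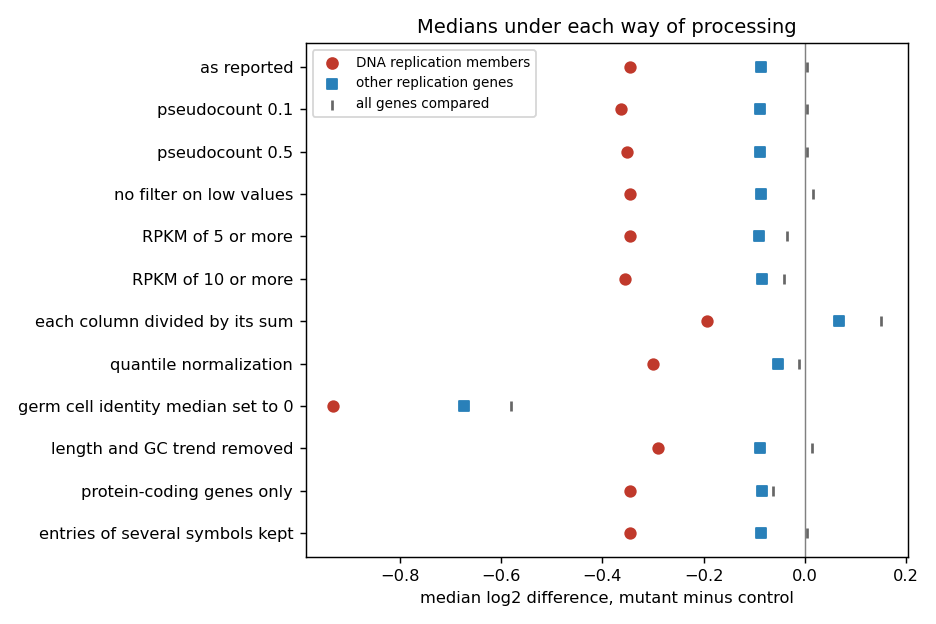
Median log2 difference (mutant minus control) of the 33 replication genes (circles), of the 68 other replication genes (squares) and of all genes compared (ticks) under each way of processing. The circles stay left of the squares and ticks in all 12 rows, between -0.93 with germ cell genes centred on 0 and -0.19 with each column divided by its sum.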

How the data were processed

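The deposited table holds RPKM, with 1 column for both control libraries and 1 for both mutant libraries, per the file headers. How the authors combined libraries, counted reads and annotated genes: not given in the sources used here. TopHat2 2.0.11 and GRCm38 are named in the submitters' processing notes. Entries that pool several symbols (981) stayed out of the background of 16473 genes, which reached an RPKM of 1 in at least 1 genotype, and the highest mean was used for repeated symbols. Differences are log2((mutant RPKM + 1) / (control RPKM + 1)), so those of low genes are understated, and at least 20% lower or 25% higher refers to this scale. A planned limma fit was not possible on 1 value per genotype.

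Depth was read from steps of low values (up to 10 reads) in genes with 1 GENCODE M21 transcript of at least 1000 nt: 90.7% of 1510 mutant and 84.2% of 1522 control values lay within 0.1 of a whole read. This and the lowess trend removal (fraction 0.3, statsmodels 0.14.6) were tested on simulated data. Lengths are those of the longest coding transcript. The members and gene lists were chosen with earlier results of these data known, and the 15 assemblies and 6 ratios after the values were seen. All 33 genes are named. Of each related list the 2 lowest and the 1 highest are named, as are Mcm8 and others of an assembly, and of marker lists some of the 2 most abundant. Python 3.11.15 was used. The 11 alternatives varied the pseudocount, filter, scaling, trend and features compared.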

Additional observations from a re-analysis of the deposited data

How the results depend on the processing

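No paired analysis was possible because the table holds 1 combined value per genotype, and for the same reason no library could be left out. Under pseudocounts of 0.1 and 0.5, no filter on low values, minimum RPKM of 5 or 10, protein-coding genes only and entries of several symbols kept, the median of the replication genes stayed between -0.36 and -0.35 and the number at least 20% lower at 18 or 19. Scaling mattered more. With each column divided by its sum, the median was -0.19 and 11 of 33 genes were at least 20% lower, against 19.1% of all genes, and the other replication genes had a median of 0.067 with 11 of 68 at least 20% lower. With germ cell genes centred on 0, which moved the all-gene median to -0.58, the median was -0.93 with 33 of 33 genes at least 20% lower, against 70.2% of all genes, and the other replication genes had -0.67 with 59 of 68. Quantile normalization gave a median of -0.30 with 15 of 33 genes at least 20% lower, against 28.1% of all genes. Removal of the length and GC trend gave -0.29 with 14 of 33, against 24.9% of all genes. Single genes changed direction as follows: Mcm7 (0.005), Gins3 (0.033), Gins4 (0.15), Rfc3 (0.081), Clspn (0.06) and Tipin (0.064) with columns divided by their sums, Gins4 (0.007) after quantile normalization, Ccne2 (-0.49) and Pole (-0.40) with germ cell genes centred, and Gins4 (0.13), Ccne2 (-0.17) and Rfc3 (0.01) with the trend removed. Beyond the construction of each scaling, the cause was not tested. On the RPKM as deposited, depth limits Gins3 and Gins4 and nearly Rfc3, and the lack of separate libraries limits all values. With columns divided by their sums, genes such as Mcm7 (0.005, margin 0.025) and Rfc5 (-0.021, margin 0.039) also lay within the margin of counting error.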

Other observations

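Among regulators of S phase entry, the E2F and RB family was split in direction and the CDK inhibitors and D-type cyclins were mostly lower in mutant. Of 14 genes of the E2F and RB family outside the replication list, 7 were below and 7 above control, with a median log2 difference of 0.09. Rb1, the retinoblastoma repressor of E2F, was the highest of them at 61.9 RPKM in mutant and 33.5 RPKM in control (log2 difference 0.87), while E2f8 was at 4.74 RPKM in mutant and 7.08 RPKM in control (-0.49) and E2f2 at 2.54 RPKM in mutant and 3.61 RPKM in control (-0.38). Of 12 CDK inhibitors, D-type cyclins and their kinases, 10 were below control, against 49.6% of all genes. Their median was -0.31, and the summed RPKM in mutant was 0.668 of that in control. In this list 5 were at least 20% lower and 2 at least 25% higher, against 26.5% and 25.9% of all genes. Ccnd2, a D-type cyclin, was at 102 RPKM in mutant and 247 RPKM in control (-1.26), the inhibitor gene Cdkn2d at 3.89 RPKM in mutant and 8.66 RPKM in control (-0.98), and the inhibitor gene Cdkn2b at 4.01 RPKM in mutant and 2.84 RPKM in control (0.38).

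Checkpoint genes differed in direction among themselves. Atr, the kinase activated at stalled forks, was at 50.3 RPKM in mutant and 36.1 RPKM in control (0.47), whereas its effector Chek1 was at 40.5 RPKM in mutant and 52.5 RPKM in control (-0.37) and Chek2 at 23.0 RPKM in mutant and 32.7 RPKM in control (-0.49). The list of 10 had a median of 0.12. Of 7 genes that degrade origin factors, Skp2 was the lowest at 14.5 RPKM in mutant and 19.5 RPKM in control (-0.40), Ddb1 followed at 125 RPKM in mutant and 145 RPKM in control (-0.21), and Fbxw7, which targets cyclin E, was the highest at 17.5 RPKM in mutant and 12.9 RPKM in control (0.41).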
